A study of Mus musculus with 36 samples.

Results

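The 10 genes Fos, Fosb, Jun, Junb, Egr1, Egr2, Egr3, Ier2, Atf3 and Nr4a1 were taken by symbol from 49585 features measured by total RNA sequencing in whole mouse bladder. They were chosen by name, as immediate early genes. C57BL/6 mice had both adrenal glands removed, in the control groups as well as in the treated ones, so every animal lacked its main source of corticosterone. They were then given CORT, described in the labels as corticosterone at an inactive timing, or vehicle, and 36 libraries were made: 18 per treatment, with 3 replicates for every time of 4, 8, 12, 16, 20 and 24 h. Time zero is not defined in the labels, and it is not stated that replicates came from separate animals, so the p-values rest on a spread between libraries that may be technical. No ages are stated.

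Immediate early genes are transcribed within minutes of a stimulus, without new protein synthesis, and their RNAs decay quickly. Growth factor, stress, stretch and calcium signals reach their promoters through MAP kinases and the factors SRF, ELK and CREB, and most of the products are themselves transcription factors that drive later genes. In bladder they are widely used as readouts of distension, injury and nerve input, and the handling of a tissue at collection can also induce them.

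Before the results, 3 properties of the libraries have to be stated. The protocol text describes RNA isolation from blood and removal of globin RNA, whereas the source of every sample is bladder. All 9 urothelial and all 7 smooth muscle marker genes passed the filter on low values, with summed values of at least 47790 and 143700 in every library, while the 6 erythroid genes, which also passed, summed to between 975.5 and 6419. For replicate 3 the time was taken from the sample title, since its tags give none, and its samples have later accession numbers. For 8 replicate 2 libraries, 4 of each treatment, the authors' 18-library tables of selected genes use another name than their full tables. There 4 of the 8 stand under the other treatment. Libraries were matched by the rank correlation of their values over the listed genes, which was at least 0.9952 for these 8. The authors' 12-library tables of selected genes were not searched for other names. In the 18-library tables the full tables' CORT 4 h is named CORT 16 h, CORT 8 h is CORT 20 h, CORT 16 h is vehicle 4 h and CORT 20 h is vehicle 8 h. Likewise vehicle 4 h is named vehicle 16 h, vehicle 8 h is vehicle 20 h, vehicle 16 h is CORT 4 h and vehicle 20 h is CORT 8 h. The names of the full tables were used. Values under the other names or without the 8 libraries are given for the spread, the correlations, the day mean, the rhythms and the differences at 4, 8 and 20 h. Neither the 12 h nor the 24 h groups hold any of these libraries.

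The genes are spread over the genome. On mm10, Fos lies on chromosome 12 at 85473890 to 85477273, Fosb on chromosome 7 at 19302696 to 19310051, Jun on chromosome 4 at 95049034 to 95052222, and Junb and Ier2 on chromosome 8 at 84974484 to 84978718 and 84661331 to 84662852. Egr2 lies on chromosome 10 at 67535475 to 67542188, Egr3 on chromosome 14 at 70077203 to 70082614, Atf3 on chromosome 1 at 191170296 to 191218039 and Nr4a1 on chromosome 15 at 101254269 to 101274795. Jun is overlapped by the antisense gene Junos, Junb by Prdx2 and Atf3 by Gm24748, each on the opposite strand. The library kit was directional, but whether counting used the strand is not stated, so reads of these 3 genes cannot be told apart from those of their partners.

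Promoter sequences were available for 7 of the 10 genes (Fos, Fosb, Jun, Junb, Egr2, Atf3 and Nr4a1), from RefSeq on GRCm38.p6, as 250 bases before to 50 bases after the start of transcription. Of these, 5 are printed 5′ to 3′ on the gene's strand, because these genes bracket the range of behaviour described later: Fos, Fosb, Egr2 and Nr4a1 varied widely and together between libraries, whereas Jun varied least. They are chr12:85473640-85473939 (plus strand) for Fos, chr7:19309996-19310295 (minus) for Fosb, chr10:67537619-67537918 (plus, 1 of 5 listed starts) for Egr2, chr15:101266596-101266895 (plus) for Nr4a1 and chr4:95052173-95052472 (minus) for Jun. Capitals mark the letters TGACG or their reverse complement CGTCA, the core of the cyclic AMP response element that CREB and ATF proteins bind, and the CArG box, the motif that SRF binds.
Fos: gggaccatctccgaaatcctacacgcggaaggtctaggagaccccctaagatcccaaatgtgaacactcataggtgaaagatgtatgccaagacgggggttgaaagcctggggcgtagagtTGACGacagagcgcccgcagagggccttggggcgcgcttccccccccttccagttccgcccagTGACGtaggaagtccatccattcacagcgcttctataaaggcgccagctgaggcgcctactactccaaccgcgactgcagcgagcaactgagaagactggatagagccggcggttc
Fosb: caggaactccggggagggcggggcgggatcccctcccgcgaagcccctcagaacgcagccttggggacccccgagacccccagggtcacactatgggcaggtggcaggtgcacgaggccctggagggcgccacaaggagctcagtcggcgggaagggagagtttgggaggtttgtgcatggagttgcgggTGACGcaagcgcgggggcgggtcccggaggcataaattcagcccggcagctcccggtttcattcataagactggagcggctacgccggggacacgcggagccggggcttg
Egr2: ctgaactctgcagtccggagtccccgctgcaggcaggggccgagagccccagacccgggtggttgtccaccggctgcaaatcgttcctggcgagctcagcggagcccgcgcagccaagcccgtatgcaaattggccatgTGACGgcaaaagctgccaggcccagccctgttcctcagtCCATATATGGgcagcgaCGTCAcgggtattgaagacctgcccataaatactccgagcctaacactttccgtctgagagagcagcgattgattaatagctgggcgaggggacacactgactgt
Nr4a1: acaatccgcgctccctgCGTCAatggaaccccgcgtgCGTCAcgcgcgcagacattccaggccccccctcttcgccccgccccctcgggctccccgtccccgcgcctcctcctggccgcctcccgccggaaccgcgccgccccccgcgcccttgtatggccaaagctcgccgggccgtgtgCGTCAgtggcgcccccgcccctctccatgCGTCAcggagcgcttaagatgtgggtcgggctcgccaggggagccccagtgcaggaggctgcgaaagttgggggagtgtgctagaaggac
Jun: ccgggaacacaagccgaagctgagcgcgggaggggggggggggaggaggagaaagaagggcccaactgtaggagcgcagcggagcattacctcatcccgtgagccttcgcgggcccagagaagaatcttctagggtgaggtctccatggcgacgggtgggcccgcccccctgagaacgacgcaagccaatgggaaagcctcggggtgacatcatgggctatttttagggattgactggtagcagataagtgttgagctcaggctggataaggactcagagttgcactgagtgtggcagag
TGACG was found on either strand for 6 of the 7 genes, all but Jun, and in 20.8% of the 32817 distinct promoters of the table. A gene was counted if any of its listed starts had the motif, whereas the shares count each promoter by itself. This matters for Egr2, as not all of its 5 promoters hold TGACG or a CArG box. With the start at position 0, Nr4a1 held 4 copies, from position -233 to -36, and Fos held 2 copies, beginning at -129 and -66. Junb, not printed, varied 2.86-fold between libraries against 2.51-fold for Jun, and it held TGACG beginning at -106. A relation between the motif and the spread of a gene was not tested. A CArG box was present in the promoter of Egr2 alone among the 7, beginning at -72, against 1.63% of all promoters. The full palindrome TGACGTCA, which contains TGACG on both strands, was in none of the 7 promoters (1.79% of all), nor was the AP-1 site TGACTCA (5.2% of all) or the EGR site GCGTGGGCG (0.612% of all). TATAAA was found in Fos and Junb (13.6% of all). These matches describe letters in a short window, and enhancers further away were not searched.

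All values are gene read counts after quantile normalization by the authors, brought here to 1 scale over the 36 libraries, with a mean total count per library of 11016413 in CORT and 10682675 in vehicle. To compare genes with each other, the median over libraries was divided by the exon length in kilobases. On this scale Junb, a JUN family partner of FOS proteins, was highest at 613 (range over libraries 354 to 1010), followed by Ier2, a nuclear protein of the early response, at 276 (191 to 504), Jun, the founding JUN protein, at 174 (117 to 293), and Fos, the FOS protein of the AP-1 dimer, at 136 (49.2 to 763). Egr1, a zinc finger factor, was at 63.8 (14.7 to 498) and Nr4a1, an orphan nuclear receptor, at 59.9 (16.4 to 321). Atf3, a stress-induced factor of the ATF family, was at 21.2 (6.99 to 88.4), Egr2 at 4.91 (1.53 to 36.8), Fosb at 4.43 (1.19 to 104) and Egr3 at 1.19 (0 to 11.5). The ranges of each pair of neighbours in this order overlapped. Egr3 rested on few reads, with normalized values of 0 in CORT 16 h replicate 2 and CORT 20 h replicate 3. In a whole organ, fewer cells of a type and less RNA per cell cannot be told apart.

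The main feature of the list was variation between replicates of the same group. Over the 12 groups the SD of log2(normalized value + 1) between replicates was 1.12 for Fos, 1.48 for Fosb, 1.13 for Egr1, 1.12 for Egr3, 1.13 for Nr4a1, 0.85 for Egr2 and 0.73 for Atf3. The median over all 17744 features was 0.25, and that over the 10 genes was 0.99. Under the other names of the 8 libraries these medians were 0.27 and 1.12, and without the 8 libraries 0.26 and 1.04 (settings for the spread and the correlations chosen after the data were seen). Against features of similar mean level (within 0.5 log2), Egr1 stood at percentile 99.9, and Fos, Fosb and Nr4a1 at 99.8 each. Jun, at 0.26, and Ier2, at 0.33, varied far less and stood at percentiles 85 and 93.3 of features of their own level, and Junb, at 0.39, at percentile 96. Highest and lowest library differed 87.5-fold for Fosb, 33.9-fold for Egr1, 24.1-fold for Egr2, 19.5-fold for Nr4a1, 15.5-fold for Fos and 12.6-fold for Atf3, but 2.86-fold for Junb, 2.63-fold for Ier2 and 2.51-fold for Jun.

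**Figure D1:**
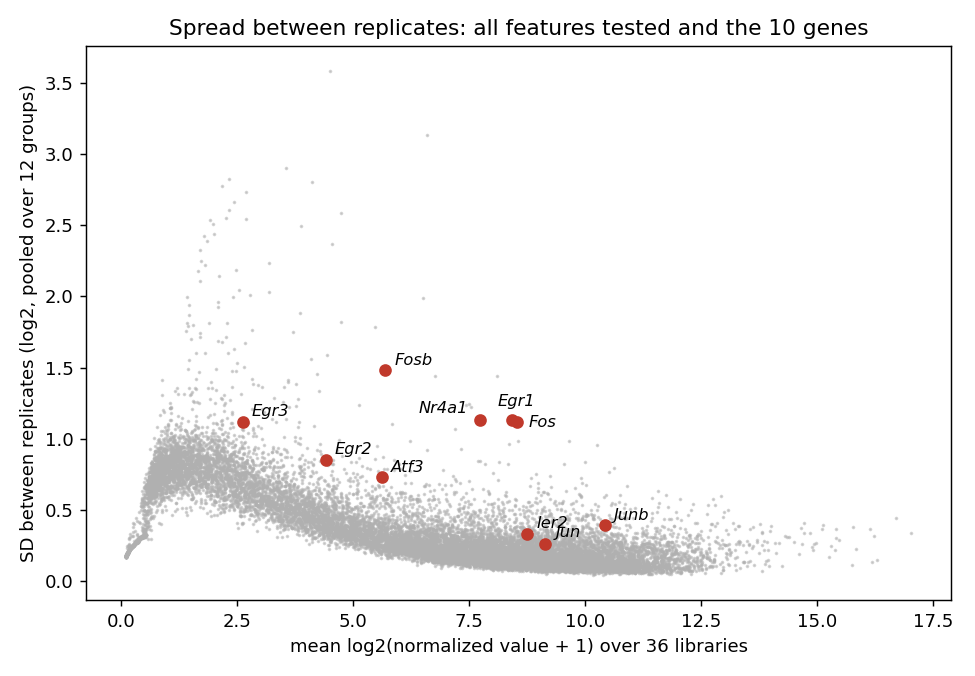
SD between replicates (log2, pooled over 12 groups, y axis) against the mean log2(normalized value + 1) over 36 libraries (x axis) for all features tested (grey) and the 10 genes (red). Fosb, Nr4a1, Egr1 and Fos lie above nearly all features of their level, with SDs of 1.48, 1.13, 1.13 and 1.12.

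The FOS genes showed this most plainly. Fos in vehicle at 8 h had normalized values of 176, 1793 and 1781 in replicates 1, 2 and 3, and in CORT at 24 h of 116, 1527 and 1210. In both groups replicates 2 and 3 were close to each other and replicate 1 was low, with 116 the lowest of all 36 libraries. Vehicle 8 h replicate 2 is 1 of the 8 libraries with another name. Under those names vehicle at 8 h held Fos values of 176, 214.9 and 1781, so that replicate 3 alone was high, and the library with 1793 stood in vehicle at 20 h, beside 379 and 179. Such a change of name applies to replicate 2 at 4, 8, 16 and 20 h in both treatments, for Fos and for every gene below. It does not apply at 12 h and 24 h. Fos was also high in CORT at 8 h replicate 3 (1376; replicates 1 and 2, 217 and 333), CORT at 20 h replicate 3 (1026; 221 and 214.9) and CORT at 4 h replicates 2 and 3 (941 and 791; replicate 1, 252). Vehicle libraries at 4, 12, 16, 20 and 24 h lay between 133 and 543.

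Fosb, whose product also pairs with JUN proteins, reached 576 and 648 in vehicle at 8 h replicates 2 and 3, against 37 in replicate 1. In CORT at 24 h it stood at 130, 520 and 524, and in vehicle at 24 h at 439, 14.5 and 20.9, so that the high library was replicate 1 there. At 12 h and 16 h every library of both treatments lay between 7.4 and 37.2. None of the 12 libraries of these 4 groups was therefore high for Fosb under the names of the full tables. With the other names CORT at 16 h held Fosb values of 7.4, 196.2 and 36.8.

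The EGR genes, zinc finger factors that bind GC-rich sites, followed the same libraries. Egr1 was 130, 1819 and 2235 in vehicle at 8 h and 412, 1658 and 1467 in CORT at 24 h. Egr2 was 17.2, 104.8 and 125 in vehicle at 8 h and 17.2, 86.7 and 109 in CORT at 24 h. For Egr3 the values were 2.95, 23.2 and 32.4 in vehicle at 8 h and 12.7, 25.8 and 50.6 in CORT at 24 h. In vehicle at 20 h all 3 genes were higher in replicates 2 and 3 than in replicate 1, with Egr1 at 295, 734 and 615, but there the FOS protein gene was not: Fos stood at 379, 204 and 179.

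Nr4a1 was 144, 965 and 1125 in vehicle at 8 h and 302, 744 and 1013 in CORT at 24 h. Atf3 was 43.7, 190 and 171 in vehicle at 8 h and 56.1, 135 and 157 in CORT at 24 h. Junb was 875, 2261 and 2330 in vehicle at 8 h and 889, 2099 and 1886 in CORT at 24 h, and Ier2 was 341, 768 and 678 and then 311, 696 and 589. Thus 9 of the 10 genes were among the 6 highest of all 36 libraries in each of these 4 libraries, vehicle 8 h and CORT 24 h replicates 2 and 3. The exception was Jun, at 607, 550 and 621 in vehicle at 8 h and 513, 530 and 557 in CORT at 24 h, where its replicates were close together.

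**Figure D2:**
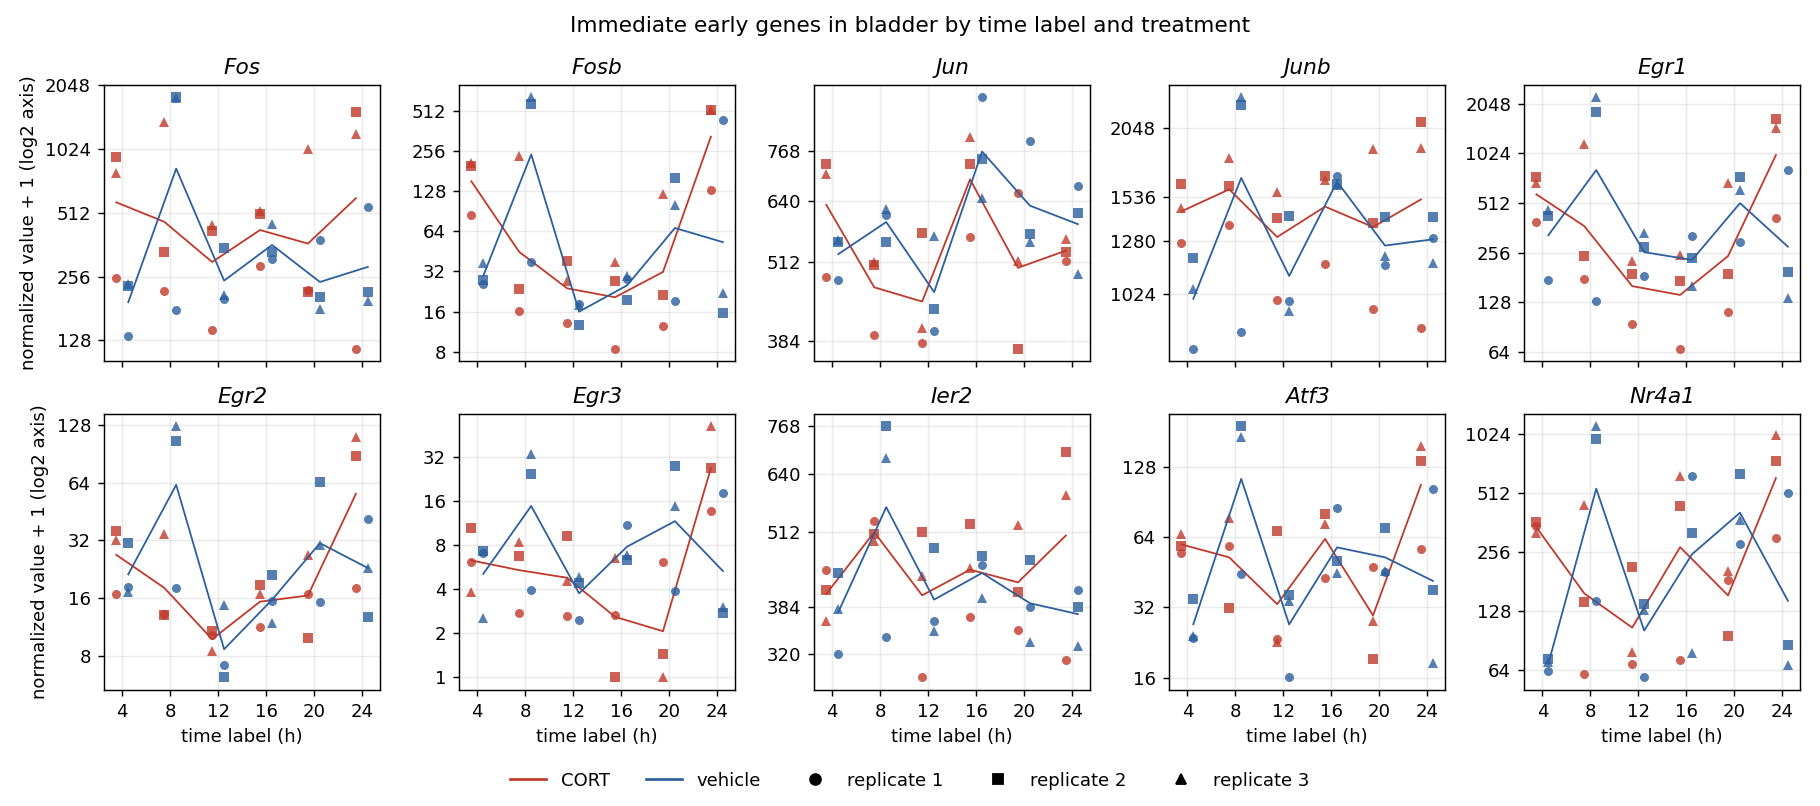
Normalized value + 1 (y axis, log2 scale) of each of the 10 genes by time label (x axis) in CORT (red) and vehicle (blue); symbols are the 3 replicates and lines join the means of log2 values. In vehicle at 8 h and CORT at 24 h replicates 2 and 3 stand above replicate 1 for the 9 genes other than Jun, as for Fos with 1793 and 1781 against 176.

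Jun had a pattern of its own. Its highest library was vehicle 16 h replicate 1 (934), and at 16 h it stood at 934, 746 and 646 in vehicle and at 560, 732 and 808 in CORT. At 12 h it stood at 397, 430 and 562 in vehicle and at 380, 568 and 401 in CORT. Both treatments thus had their highest group mean at 16 h, 775 ± 146 in vehicle and 700.2 ± 127 in CORT, and their lowest at 12 h, 463 ± 87.1 and 450 ± 103 (SD, n = 3 each). The change over the 6 times did not pass in vehicle (limma, adjusted p = 0.272) or in CORT (adjusted p = 0.986).

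A score for each library, the mean over the 10 genes of the z score of log2(value + 1), put vehicle 8 h replicates 3 and 2 first (1.84 and 1.74), then CORT 24 h replicates 3 and 2 (1.54 and 1.52). CORT 8 h replicate 3 (0.79), vehicle 24 h replicate 1 (0.76) and CORT 4 h replicate 2 (0.68) came next. The lowest scores were those of CORT 12 h replicate 1 (-1.26), where 9 of the 10 genes were among their 6 lowest libraries, and vehicle 12 h replicate 1 (-1.13). By replicate number the median score was -0.53 for replicate 1, 0.08 for replicate 2 and 0.11 for replicate 3 (12 libraries each), and of the 10 highest libraries 2, 4 and 4 were of these numbers. The part of the replicate number in the scores was not tested.

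**Figure D3:**
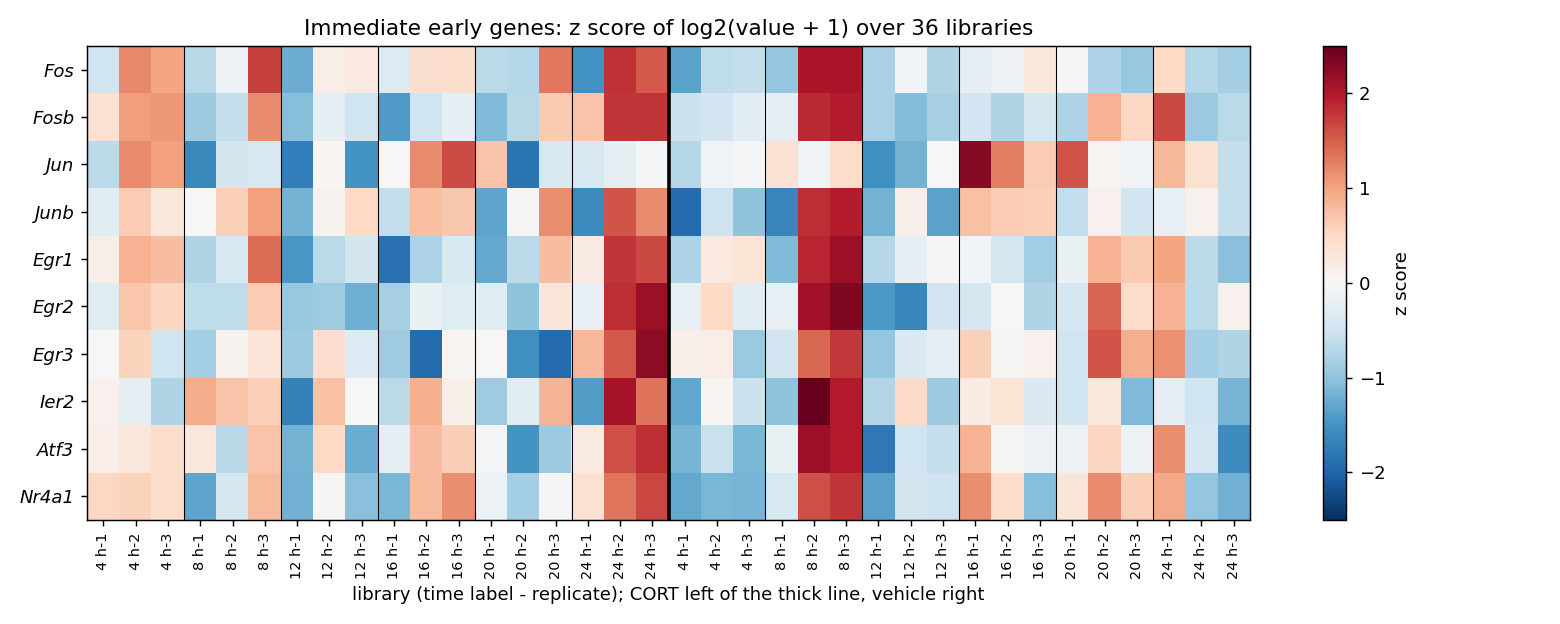
z score of log2(normalized value + 1) over the 36 libraries (colour) for the 10 genes (rows) by library (columns, time label and replicate; CORT left, vehicle right of the thick line). The columns of CORT 24 h and vehicle 8 h replicates 2 and 3 are high in 9 rows and not in that of Jun.

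The genes moved together between replicates. With the 12 group means taken out, the Pearson correlation over the 36 libraries had a median of 0.65 over the 45 pairs of genes, from 0.11 to 0.92 (median 0.605 under the other names and 0.64 without the 8 libraries). It was highest for Fosb with Egr1 (0.92), Junb with Ier2 (0.90), Fos with Junb (0.87) and Fos with Egr1 (0.845). Jun stood apart with a median of 0.29 with the other 9 genes, and was closest to Nr4a1 (0.54) and Atf3 (0.51). Without Jun the lowest of 36 pairs was 0.35, Junb with Egr3. These are descriptions: the points share libraries and a normalization, and each library enters every pair.

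**Figure D4:**
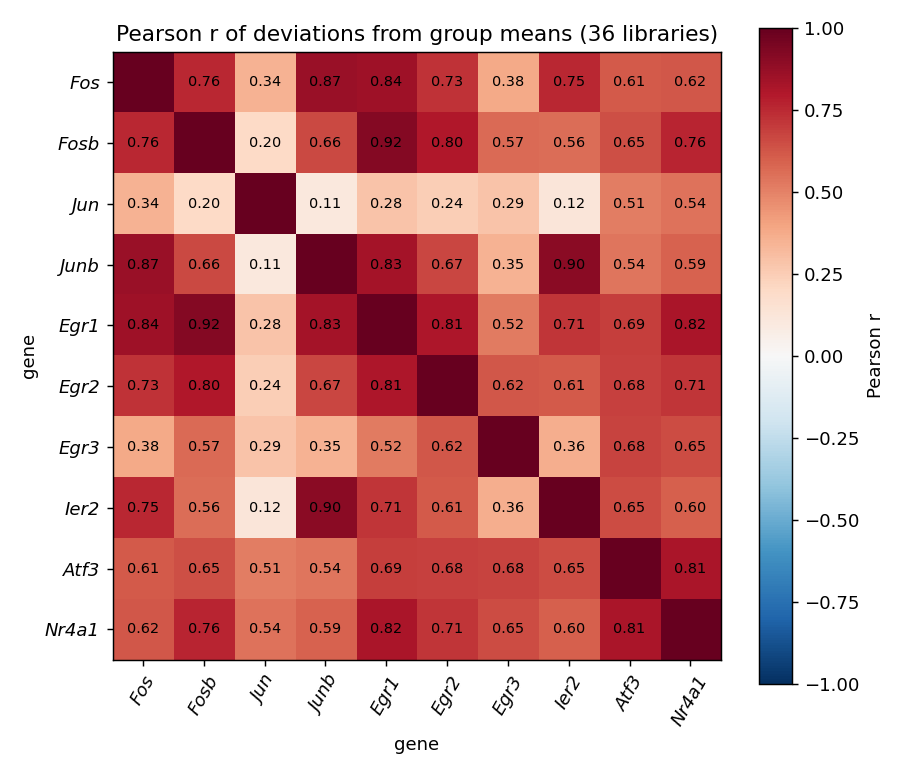
Pearson r between pairs of the 10 genes over 36 libraries after removing the 12 group means (colour and number in each cell; both axes list the genes). Fosb with Egr1 is highest at 0.92 and the row of Jun is the palest, with a median of 0.29.

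Fos did not follow the EGR genes everywhere. The log2 ratio of Egr1 to Fos was 1.84 and 1.77 in vehicle 20 h replicates 2 and 3 and 1.82 in CORT 24 h replicate 1, and the next highest of the 36 libraries was 0.99, in vehicle 4 h replicate 3. In those libraries the log2 ratio of Fosb to Fos was -0.35, -0.84 and 0.17, and its lowest value of all was -5.1 in CORT 16 h replicate 1. In the 4 libraries with the highest scores the ratio of Egr1 to Fos lay between 0.02 and 0.33. High Fosb, Egr1, Egr3 and Nr4a1 values thus occurred in these data both with high and with low Fos.

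The first comparison asked whether CORT and vehicle differed over the day as a whole. None of the 10 genes passed (limma, adjusted p under 0.05), where 735 of 17744 features, or 4.14%, did. The values of CORT minus vehicle on the log2 scale ran from -0.43 ± 0.36 for Egr3 to 0.49 ± 0.36 for Fos (SE, 18 libraries per treatment), with a median of 0.12, against 0.02 for all features. The smallest adjusted p was 0.425, for Jun (-0.13 ± 0.09), and no gene had an unadjusted p under 0.05. For Fos the 95% interval ran from -0.25 to 1.23, which takes in both 0 and a 2-fold difference, whereas for Jun (-0.30 to 0.05) and Ier2 (-0.13 to 0.32) the interval was narrow. Values of Egr1, Egr2 and Egr3 changed sign under the other names of the 8 libraries (0.12, 0.16 and 0.35).

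At 4 h all 10 genes had higher mean values in CORT, and none passed, where 0.163% of features did (29 of 17744). Nr4a1 was 345, 362 and 320 in CORT and 62.5, 72 and 69.6 in vehicle, a difference of 2.31 ± 0.89 on the log2 scale (SE), or 4.97-fold, with limma adjusted p = 0.536 and an unadjusted p of 0.0154. The replicates of each group were close and the groups were far apart, but the limma spread of this gene was set by all 12 groups. Fos was 252, 941 and 791 in CORT against 133, 229 and 235 in vehicle, a difference of 1.57 ± 0.89 (adjusted p = 0.806). Fosb was 84.3, 196 and 209 against 24.6, 26.8 and 35.9, a difference of 2.36 ± 1.17 (adjusted p = 0.731). Atf3 was 53.8, 57.9 and 64.7 against 22.7, 33.9 and 23.1, a difference of 1.14 ± 0.58 (adjusted p = 0.741).

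For these 4 genes and Junb (1268, 1626 and 1470 against 815, 1190 and 1044) the lowest CORT library at 4 h was above the highest vehicle library, which made 5 of 10 genes, and 7.15% of all features were separated in this direction. The other 5 genes overlapped: the differences were 0.82 for Egr1, 0.34 for Egr2, 0.30 for Egr3, 0.26 for Jun and 0.10 for Ier2. The median over the list was 0.68, against 0.0046 for all features tested. Without the 8 libraries that carry other names, the differences were 2.32 for Nr4a1, 2.13 for Fosb, 1.33 for Fos and 1.33 for Atf3, and under the other names they were 1.39, 1.26, 0.69 and 0.66. All adjusted p under those settings were at least 0.964. Under the other names the groups of the 5 separated genes all overlapped. Nr4a1 then stood at 345, 318.1 and 320.2 in CORT against 62.5, 441 and 69.6 in vehicle.

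At 8 h the values pointed the other way: all 10 genes had lower mean values in CORT, with a median of -1.12 against 0.05 for all features, and again none passed, where 0.766% of features did (136). Fosb was 15.2, 22.8 and 234 in CORT against 37, 576 and 648 in vehicle, a difference of -2.43 ± 1.17 (limma adjusted p = 0.323). Egr2 was 12.2, 12.1 and 33.5 in CORT against 17.2, 104.8 and 125 in vehicle, a difference of -1.78 ± 0.67 (adjusted p = 0.196), the smallest adjusted p of the list at 8 h. Nr4a1 was 60.4, 142 and 444 in CORT against 144, 965 and 1125 in vehicle, a difference of -1.78 ± 0.89 (adjusted p = 0.342). In each of these genes CORT replicate 3 was above vehicle replicate 1, so the groups overlapped.

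Jun was the only gene of the list whose groups did not overlap at 8 h, with 391, 506 and 512 in CORT against 607, 550 and 621 in vehicle (-0.34 ± 0.21, adjusted p = 0.443), and 10.7% of features were separated in that direction. Under the other names Jun overlapped, with 391, 566.6 and 511.7 in CORT against 607, 372 and 620.6 in vehicle. The result at 8 h turned on single libraries. Without vehicle 8 h replicate 1, Egr2 passed at -2.67 (limma adjusted p = 0.048; 0.939% of features passed), and with library weights it passed at -2.32 (0.0244; 5.35%). Under the other names of the 8 libraries, 8 of the 10 differences were above 0, among them Egr1 at 0.49, Egr2 at 0.12, Fosb at 0.07 and Nr4a1 at 0.06. Without the 8 libraries, Fosb was at -1.35, Nr4a1 at -1.29 and Egr2 at -1.17 (adjusted p of at least 0.666).

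At 12 h and 16 h none of the 10 genes passed, where 0.0451% and 0.0113% of features did, and all had overlapping groups, where 6.7% and 6.49% of features did not overlap. The median difference was 0.21 at 12 h and -0.09 at 16 h. At 20 h no feature passed (0% of 17744; 1062 had an unadjusted p under 0.05), and Egr3 had the smallest adjusted p of the list, 0.693, with 5.13, 0.433 and 0 in CORT against 2.86, 26.5 and 13.7 in vehicle (-2.49 ± 0.89), which overlapped. Nr4a1 at 20 h was 183, 94.8 and 205 in CORT against 280, 643 and 372 in vehicle, a difference of -1.40 ± 0.89 (adjusted p = 0.872). Its groups did not overlap, as for 6.14% of features in that direction. Under the other names of the libraries the difference of Egr3 was -1.69 and that of Nr4a1 -1.41, and without the 8 libraries they were -1.61 and -0.73, with no call. Without replicate 1, Egr3 passed at 20 h, at -4.07 (limma adjusted p = 0.0362), where 0.326% of features did.

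At 24 h, 9 of the 10 genes had higher mean values in CORT, with a median difference of 1.32 against 0.02 for all features, and none passed, where 0.0338% of features did (6). The values were 2.63 ± 1.17 for Fosb (limma adjusted p = 0.718), 2.33 ± 0.89 for Egr3 (0.585), 2.08 ± 0.89 for Nr4a1 (0.68), 1.85 ± 0.89 for Egr1 (0.783) and 1.37 ± 0.58 for Atf3 (0.667). These 5 had unadjusted p under 0.05, as did 1122 of the 17744 features. The groups of all 10 genes overlapped (11.1% of features did not). CORT 24 h replicate 1 was the lowest of its group for all 10 genes. Vehicle 24 h replicate 1 was the highest of its group for all but Junb (1295, 1414 and 1166). Egr1 was 412, 1658 and 1467 in CORT against 813, 194 and 135 in vehicle, and Egr3 was 12.7, 25.8 and 50.6 against 17.1, 1.75 and 2. Fos, at 116, 1527 and 1210 against 543, 216 and 194, differed by 1.08 ± 0.89, and Jun by -0.14 ± 0.21. The 8 libraries with other names do not enter these differences, but they enter the SE and p through the spread over all groups. Under the other names the adjusted p of these 5 genes were at least 0.998. In the 39 fits without a single library or a replicate number no gene passed at 24 h, and the difference of Fosb lay between 1.42 and 4.82. With library weights estimated by limma, which give less weight to libraries that stand apart, Atf3 (adjusted p = 0.0443), Egr3 (0.0443) and Nr4a1 (0.0471) passed, as did 1.1% of features.

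**Figure D5:**
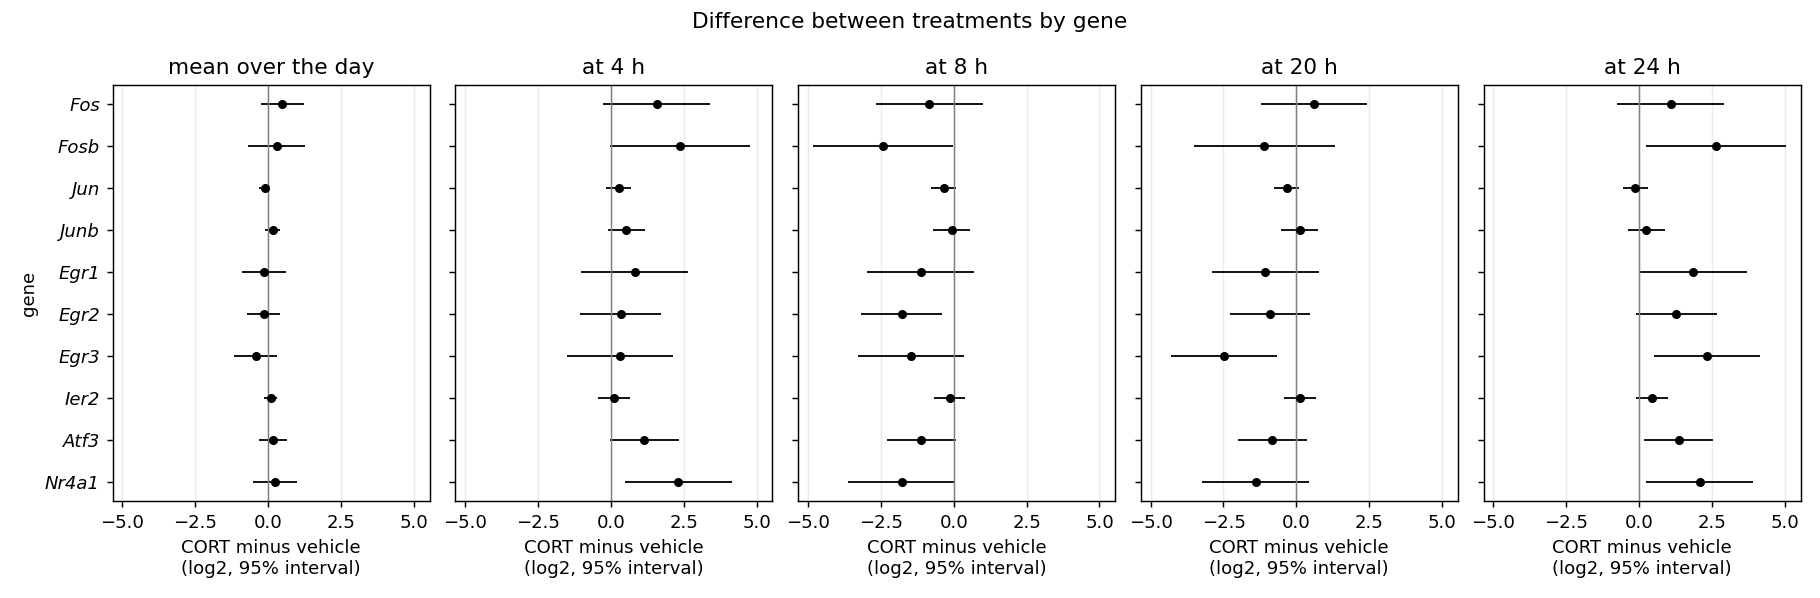
CORT minus vehicle (x axis, log2, points) with 95% intervals from limma (bars) for the 10 genes (y axis) over the day and at 4, 8, 20 and 24 h. All 10 points lie above 0 at 4 h, all lie below 0 at 8 h and 9 lie above 0 at 24 h, with wide intervals for all but Jun, Ier2 and Junb, and none passed the adjusted threshold.

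The second comparison asked whether the genes changed over the 6 times. In vehicle none of the 10 passed as a difference between times (0.401% of features did) or as a 24 h rhythm (0.44%). In CORT none passed either, where 0.0167% of features changed between times and 0% had a rhythm (0 of 17921; 1055 had an unadjusted p under 0.05). Unadjusted p under 0.05 were found between times for 4 of the 10 genes in vehicle (13.9% of features) and 5 in CORT (5.57%), and in the rhythm tests for 0 (12.7%) and 3 (5.89%). The fitted rhythms with the smallest p were those of Fosb in CORT, with an amplitude of 1.93 ± 0.43 (log2, mean to peak, SE, 18 libraries) and a fitted peak at 2.04 h on the label clock (limma adjusted p = 0.401), Egr1 (1.35 ± 0.32, 2.28 h, 0.437) and Egr2 (0.99 ± 0.25, 1.06 h, 0.561). Egr3 had an amplitude of 1.12 ± 0.43 in CORT (adjusted p = 0.833). In vehicle the amplitudes of Fosb, Egr1 and Egr2 were 0.68 ± 0.61, 0.34 ± 0.40 and 0.56 ± 0.37, and that of Egr3 0.08 ± 0.41. Under the other names of the 8 libraries the amplitudes in CORT were 1.33 for Fosb, 0.99 for Egr1, 0.81 for Egr2 and 0.69 for Egr3, and in vehicle that of Egr3 was 0.75. Without the 8 libraries they were 1.99, 1.39, 1.06 and 0.90 in CORT and 0.12 for Egr3 in vehicle. No gene passed a test of times or rhythm under either setting.

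The median range between the highest and lowest time means was 2.02 (log2) over the list in vehicle, against 0.42 for all features, and 2.19 against 0.34 in CORT. Wide ranges of time means came with the wide replicate spread described for these genes. Leaving out 1 library was enough to give calls in vehicle. Without vehicle 8 h replicate 1, Fos (limma adjusted p = 0.035) and Junb (0.0446) passed as changed over time (0.566% of features), and without replicate 1 in all groups Fos (0.00847), Fosb (0.00287) and Egr1 (0.00588) did (0.768%). With library weights 6 genes passed in vehicle (Nr4a1, Atf3, Fos, Junb, Fosb and Egr2), where 21.9% of features did, and Egr2 alone in CORT, where 0.329% did. In the authors' deposited tables of selected genes, which were chosen on these libraries with limits of 2-fold and p of 0.05 in their names, Fosb, Egr3 and Atf3 were listed for CORT (18 libraries) and Jun for vehicle (12 libraries). The other 2 of these 4 tables, for CORT with 12 libraries and for vehicle with 18, listed none of the 10 genes, so that no gene was listed in both tables of a treatment. Both tables with 18 libraries carry the other names. In that for CORT, replicate 2 at 4 h and 8 h are the full tables' vehicle 16 h and vehicle 20 h libraries. Its selection was thus made on another set of libraries than the CORT tests given here.

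A test of whether the time patterns differed between treatments gave no call among the 10 genes, where 0.13% of features passed, and the test of the rhythms gave none, where 0.107% did. The smallest adjusted p for the time patterns were 0.559 for Egr3 and 0.63 for Nr4a1. Without replicate 1 these 2 genes passed (limma adjusted p = 0.0415 and 0.0433; 0.32% of features passed), and with library weights they passed together with Atf3 and Egr2 (1.25%). The opposite signs at 4 h and 8 h are therefore values and not a difference that the test found with all libraries.

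For comparison, the treatment label was visible at 4 h in glucocorticoid target genes. At 4 h all 8 such genes tested had higher mean values in CORT, and 4 passed, where 0.163% of features did. The 4 were Tsc22d3, which encodes GILZ, by 2.31 ± 0.28 (limma adjusted p = 0.000116), Per1 by 2.13 ± 0.29 (0.000292), the receptor co-chaperone Fkbp5 by 2.19 ± 0.33 (0.0016) and the kinase Sgk1 by 1.49 ± 0.29 (0.0263). Nr4a1 had a difference of the same size, 2.31, with a SE of 0.89 in place of 0.28. Without the 8 libraries with other names none of the 4 passed, with 2.07 for Tsc22d3 and 1.36 for Sgk1, and the call of Sgk1 was also lost in 5 of the 36 fits without a single library. Under the other names none of the 4 passed either, with 1.51 for Tsc22d3 and 0.846 for Sgk1. None of the 8 genes passed in the day mean or at another single time. Values were above 0 for 6 of the 8 in the day mean and 7 at 16 h. At 8, 12, 20 and 24 h they were above 0 for 3, 1, 2 and 3. In vehicle, Per1, Mt2 and Tsc22d3 passed as a 24 h rhythm (0.44% of features), and Per1 as changed over time (0.401%). Per1, Tsc22d3 and Fkbp5 passed in the test of the time patterns (0.13%). Under the other names no feature passed these tests. Tsc22d3 correlated with the score of the 10 genes at 0.07 over the 36 libraries, a description.

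Other genes of the pathway were tested as lists. Among 22 tested of 23 other immediate early genes (Egr4 did not pass the filter), none passed in any of the 13 tests. The smallest p in the day mean were those of Btg2, an antiproliferative gene (0.26 ± 0.09, limma adjusted p = 0.0983), Ier5l (-0.26 ± 0.11, 0.185) and the NR4A receptor Nr4a3 (-0.39 ± 0.23, 0.337). Their median difference was 0.23 at 4 h, -0.31 at 8 h and -0.01 at 24 h, against 0.68, -1.12 and 1.32 for the 10 genes. Arc (r = 0.69 with the score, group means taken out), Klf10 (0.77) and Nr4a2 (0.61) followed the 10 genes between replicates, whereas Fosl1 (0.08), Cyr61 (0.05) and Klf6 (-0.28) did not.

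In the day mean 4.14% of all features passed (735), of which 505 were lower in CORT. Of 21 upstream kinases and factors, 2 passed in the day mean and both were lower in CORT: the ETS factors Elk3, by -0.19 ± 0.05 (limma adjusted p = 0.0278), and Elk4, by -0.13 ± 0.04 (0.0397). None of the 21 passed at a single time. Of 16 feedback inhibitors, 1 passed in the day mean: Spry4, which restrains receptor tyrosine kinase signalling, was lower in CORT (-0.50 ± 0.13, 0.030). Nab2, a corepressor of EGR proteins, was lower at 8 h (-0.78 ± 0.19, 0.0497), where 0.766% of features passed and 114 of those 136 were lower. Errfi1, an inhibitor of the EGF receptor, was higher in CORT at 4 h (2.27 ± 0.29, 0.000122; 0.163% of features passed) and was the only one of the 16 to pass as changed over time in CORT (0.0138; 0.0167%). Errfi1 also passed in the test of the time patterns, alone among the 16 (0.13% of features). The calls of Nab2 and Elk4 were lost in 21 and 18 of the 36 fits without a single library. That of Spry4 was lost in 7 and those of Elk3 and of Errfi1 at 4 h in 0. All 5 were lost without the 8 libraries and under their other names.

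Between replicates, Dusp5, a nuclear phosphatase of ERK (r = 0.77), followed the 10 genes more closely than Dusp1, a MAP kinase phosphatase (0.49), or Spry2 (-0.04). Among 11496 features with a mean value of 50 or more, those most like the score over the 36 libraries included Socs3 (r = 0.85, values 50.1 to 375), Dusp5 (0.76), Zfp36 (0.73), Fbxo33 (0.72), and Crip1, Cd83 and Ckap4 (0.70 each). With group means taken out they were Mgat2 (0.88), Ywhag (0.86), Socs3 (0.85), Ckap4 (0.805), Sbno2 and Rangap1 (0.80 each), Hyou1 (0.80) and Bcl3 (0.78). Socs3 and Ckap4 were in both sets. These features share libraries with the 10 genes, and the likeness carries no test.

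Summed cell type markers were set beside the score in 10 lists. With group means taken out, the summed markers correlated with it at 0.62 for T and NK cells (6 of 6 genes passing the filter, sums of 43.1 to 94.4 in CORT and 46.3 to 111 in vehicle), 0.52 for fibroblasts (6 of 6, 86200 to 157600 and 98410 to 212200), 0.51 for erythroid cells (6 of 6, 1084 to 3719 and 975.5 to 6419) and 0.48 for urothelium (9 of 9, 49960 to 90710 and 47790 to 115500). It was -0.39 for smooth muscle (7 of 7, 202200 to 364100 and 143700 to 411000), -0.50 for skeletal muscle (5 of 6, 1057 to 3863 and 847.5 to 4615), 0.33 for neutrophils (3 of 6, 17.3 to 39.9 and 13 to 42.2, with Ly6g below 1 in every library), 0.21 for adipocytes (5 of 5, 1649 to 4342 and 1985 to 5383), 0.16 for macrophages (6 of 6, 5609 to 7676 and 4770 to 8606) and 0.07 for endothelium (6 of 6, 2198 to 3876 and 2884 to 5661). With group means kept in, the correlations were weaker for most lists, at 0.46 for T and NK cells, 0.46 for neutrophils, 0.32 for urothelium, 0.28 for fibroblasts, 0.18 for erythroid cells, 0.12 for macrophages, 0.07 for adipocytes, -0.07 for endothelium, -0.18 for smooth muscle and -0.28 for skeletal muscle.

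In the groups where the 10 genes split most, the smooth muscle sum split too. In vehicle at 8 h it was 372500 in replicate 1, where Fos was low, and 269500 and 263500 in replicates 2 and 3, where Fos was high. In CORT at 24 h it was 364100, 274800 and 273400. The urothelial sum was 54960, 72510 and 65290, and 49960, 85760 and 77260. The skeletal muscle sum was also highest in replicate 1 of both groups, at 3502, 2414 and 2527, and 3287, 1483 and 1517. The T and NK cell sum was lowest there, at 50, 103.8 and 111.3, and 46.1, 57.05 and 68.8. Not every list split alike in the 2 groups. The fibroblast sum was 145200, 208600 and 212200 in vehicle at 8 h but 90200, 89440 and 137900 in CORT at 24 h. The adipocyte sum was 3610, 2204 and 2121 but 1786, 2811 and 2580. The part of tissue composition in the spread of the 10 genes was not tested.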

How the data were processed

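Total RNA of whole bladder was sequenced in 36 libraries (12 groups of 3). Per the labels' protocols, libraries were depleted of rRNA and made with a directional kit; the build was mm10, per the submitters' processing notes, and no aligner or counter is given in the sources used here. As deposited by the authors, there are 6 full tables of 12 libraries each, which hold a signal per gene: every library of a table has the same sorted values, in multiples of 1/12, so read counts were quantile normalized within each table. The authors deposited 4 tables of selected genes as log2 of the normalized value plus 1. Their names and gene lists were used. The values of those with 18 libraries served only to match their libraries to the full tables by rank correlation, and entered no test. Each of the 132 value columns was assigned to its sample through its name.

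A common scale was rebuilt from each library's ranks in its 2 tables and the mean of the sorted values; features at 0 in both tables were kept at 0. Values were tested as log2(value + 1), so that folds understate changes of low genes, leaving out features at the lowest value in over 50% of libraries of a fit; all 10 genes passed. limma 3.58.1 (R 4.3.3) was fitted to all features with Benjamini-Hochberg adjustment, within a treatment for times and rhythms (24 h cosine and sine) and over 36 libraries otherwise, and was tested on simulated data. Mean total counts were 9591304 to 12311337 by treatment and replicate number; replicates correlated at 0.974 to 0.989 and none were identical. Same-numbered libraries of CORT and vehicle at a time deviated together little (median r 0.0463, -0.101 to 0.258, 18 pairs), against a median of -0.0238 for libraries of other numbers and groups. Numbers were not used as pairs in the main fits, since the labels do not say that a number marks a shared animal or day. All 10 genes are named. Of the pathway lists, genes past the threshold are named, or the 3 with the smallest p in the day mean, with a few further members chosen after their values were seen; the 8 features most like the mean z score are named too, except 1 that is not reported here. The genes and lists were chosen with earlier results of these data known. Gene models were GENCODE M21; Python 3.11.15 and pandas 2.3.3 were used.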

Additional observations from a re-analysis of the deposited data

Results flagged for a closer look

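Nr4a1 had non-overlapping groups in opposite directions at 2 times. At 4 h the CORT libraries were all above the vehicle libraries, with a CORT minus vehicle difference of 2.31 on the log2 scale, and at 20 h they were all below, with a difference of -1.4. Of all features, 7.15% and 6.14% were separated in these directions. Under the other names of the 8 libraries the groups overlapped at 4 h, with 345, 318.1 and 320.2 in CORT against 62.5, 441 and 69.6. At 20 h they stayed apart, with 183, 142 and 205 against 279.5, 964.7 and 372. A direct test of the difference between these 2 times was not run; the test over all 6 times gave an adjusted p of 0.63 (limma). Groups of 3 libraries were too small for the rule on single outlying libraries, so the low replicate 1 of vehicle at 8 h and of CORT at 24 h was not tested as such.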

How the results depend on the processing

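The number of the 10 genes past the threshold was 0 in all 13 tests, and stayed 0 under every alternative to the vehicle and CORT rhythms, their difference, the day mean and the differences at 4, 12 and 16 h. Library weights gave 6 genes for the vehicle change over time (21.9% of features) and 1 for CORT (0.329%). They gave 4 for the time patterns (1.25%), 1 at 8 h (5.35%) and 3 at 24 h (1.1%). The authors' table of replicates 2 and 3 gave 3 for the vehicle change over time (0.74%). Leaving out a library or a replicate number gave 0 to 3 for the vehicle change over time and 0 to 2 for the time patterns. It gave 0 to 1 at 8 h and 0 to 1 at 20 h. The fits with the highest of these counts called 0.768%, 0.32%, 0.939% and 0.326% of features. Vehicle 8 h replicate 1 was the single library that changed a count. The cause was not tested.

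Signs changed as follows. With the names of the selected-gene tables, the day mean was 0.115 for Egr1, 0.164 for Egr2 and 0.345 for Egr3, and the 8 h difference was 0.363 for Atf3, 0.485 for Egr1, 0.123 for Egr2, 0.582 for Egr3, 0.0745 for Fosb, 0.119 for Ier2, 0.105 for Junb and 0.0572 for Nr4a1. Without the 8 libraries, the day mean was 0.0515 for Egr1 and 0.118 for Egr2, and the 8 h difference 0.0914 for Ier2 and 0.14 for Junb. Leaving out a library or a replicate number moved the day mean of Egr1 between -0.497 and 0.106, of Fosb between -0.136 and 0.777 and of Nr4a1 between -0.168 and 0.601. The 4 h difference moved between -0.19 and 0.661 for Egr3 and between -0.0808 and 0.21 for Ier2, and the 8 h difference between -0.529 and 0.0914 for Ier2 and between -0.532 and 0.173 for Junb. All were without a call.

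The replicate number as a block (replicate block) called 0 of the 10 genes in every test; over all features it gave 1237 for the day mean against 735, 52 against 29 at 4 h, 261 against 136 at 8 h and 10 against 6 at 24 h. Feature counts moved by over 1.5 times elsewhere too. With the names of the selected-gene tables all 13 counts were 0; without the 8 libraries the day mean gave 6, 4 h and 8 h gave 0, and the vehicle rhythm 17 against 78. Library weights gave 3220 for the day mean, 3874 against 71 for the vehicle change over time, 221 against 23 for the time patterns, 394 at 4 h, 949 at 8 h and 196 at 24 h. The scale of each treatment alone gave 3140 for the day mean and 48 at 4 h. No filter gave 292 for the day mean, 14 at 4 h and 38 at 8 h, in fits that limma reported as unreliable because most features had no residual variance; a mean of at least 10 gave 47 at 4 h, 267 at 8 h and 146 for the vehicle rhythm. The intensity trend gave 51 at 4 h, 224 at 8 h, 161 for the vehicle rhythm and 219 for the vehicle change over time. Single libraries left out gave 410 to 1294 for the day mean, 6 to 86 at 4 h, 5 to 286 at 8 h and 0 to 47 at 20 h. Leaving out a replicate number gave 1 to 409 for the day mean, 0 to 88 at 4 h, 1 to 70 at 8 h, 0 to 58 at 20 h, 4 to 23 for the vehicle rhythm and 0 to 136 for the vehicle change over time, with the lowest of each but that at 20 h without replicate 2. Depth limits Egr3 most, at a few reads per library.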
